A study of Mus musculus with 16 samples.

Results

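The 45 genes described here make up the cell cycle and proliferation module of the mouse transcriptome: 31 genes of mitosis and 14 genes of DNA replication. They were taken as a fixed list of gene symbols, and their probes were found in the array files through the RefSeq accession of each probe. Of the 45, 43 had a named probe and 42 passed the filter on dim probes and were tested, 29 of mitosis and 13 of replication, among 15461 genes tested in all. Prc1 and Rrm2 were not matched to a probe, and Ttk was not tested because its only probe was well above background on 5 of 16 arrays. The filter asked that all 4 arrays of some group show the probe well above background. Of the 42 genes tested, 39 were well above background on all 16 arrays, and 1, Cdc25c, was kept only through a knockout group.

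The study measured total RNA of male mice on 16 1-colour Agilent arrays, 4 in each of 4 groups: white adipose tissue of mice in which the glucocorticoid receptor was knocked out in adipose tissue only (AdipoKO_WAT), white adipose tissue of control mice that the design text calls wild-type (CTL_WAT), and brown adipose tissue of the same genotypes (AdipoKO_BAT and CTL_BAT). The receptor, encoded by Nr3c1, is a transcription factor switched on by steroid hormones. The strain, age, floxed allele, Cre driver and treatment of the mice are not given in the sources used here. White fat stores lipid and brown fat burns it to make heat, and whole fat also holds vessels, immune cells and other stromal cells. In bulk tissue, fewer cells of a type and less RNA per cell cannot be told apart.

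A dividing cell first licenses its replication origins by loading the MCM helicase, copies its DNA in S phase, and then condenses, aligns and separates its chromosomes in mitosis under the kinase CDK1 and its cyclins. Most genes of these steps are transcribed only in cycling cells, so their mRNA serves as a measure of proliferation. Mature adipocytes are held to have left the cell cycle, and cycling cells in fat are largely progenitor, endothelial and immune cells. Replication genes are transcribed from late G1 phase on under E2F factors, and mitosis genes later, in G2 phase and mitosis, under the MuvB complexes with B-MYB and FOXM1.

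Between 67.3% and 77.0% of the 43379 spots on an array were well above background, and the number of arrays limits the precision. In 9 of the 24 array pairs that can be formed inside the groups, the arrays were closer than the stated scanner error (difference over error 0.372 to 0.655, against 1.10 to 4.26 in the other pairs). Arrays linked in this way were averaged and counted as 1 sample, which left 9 samples. They are AdipoKO_WAT array 1 and arrays 2, 3 and 4; CTL_WAT arrays 1 and 4 and arrays 2 and 3; AdipoKO_BAT array 1 and arrays 2, 3 and 4; and CTL_BAT array 1, arrays 2 and 3, and array 4. Each knockout group therefore held 2 samples, called here the single sample (array 1) and the repeated sample (arrays 2, 3 and 4). Values of a group are given in the order just listed. Levels are log2 intensities relative to the 75th percentile of the array, so that 0 is the level of that percentile. Nr3c1 lay between 1.23 and 1.76 on the 8 knockout arrays, against 2.01 to 2.63 on the 8 control arrays. Arrays 2 and 3 of CTL_BAT were low in Ucp1, the uncoupling protein that defines brown fat. It lay at -0.83 there, against 6.54 and 8.07 in the other brown control samples and 5.63 to 5.85 on brown knockout arrays. Cidea (2.75) and Elovl3 (-4.74), also brown fat genes, lay below both white controls there. Skeletal muscle markers had a median level of 8.56, against 8.15 and 8.04 in the other brown controls and -3.73 and -2.84 in white controls. Zic1 lay at -4.33, against -1.37 and 0.012 in the other brown controls and -8.22 and -8.04 in white controls. Why this sample was low in Ucp1 was not tested. Brown comparisons are therefore also given without that sample. Among white samples, the single knockout sample stood out in Zic1, at -3.53, against -7.68 in the repeated one. Its Ucp1 (-2.52) lay below both white controls (-1.68 and -1.88). Skeletal muscle markers had a median of -0.56 there against the white control mean, with the highest at 5.04. The cause was not tested.

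**Figure D1:**
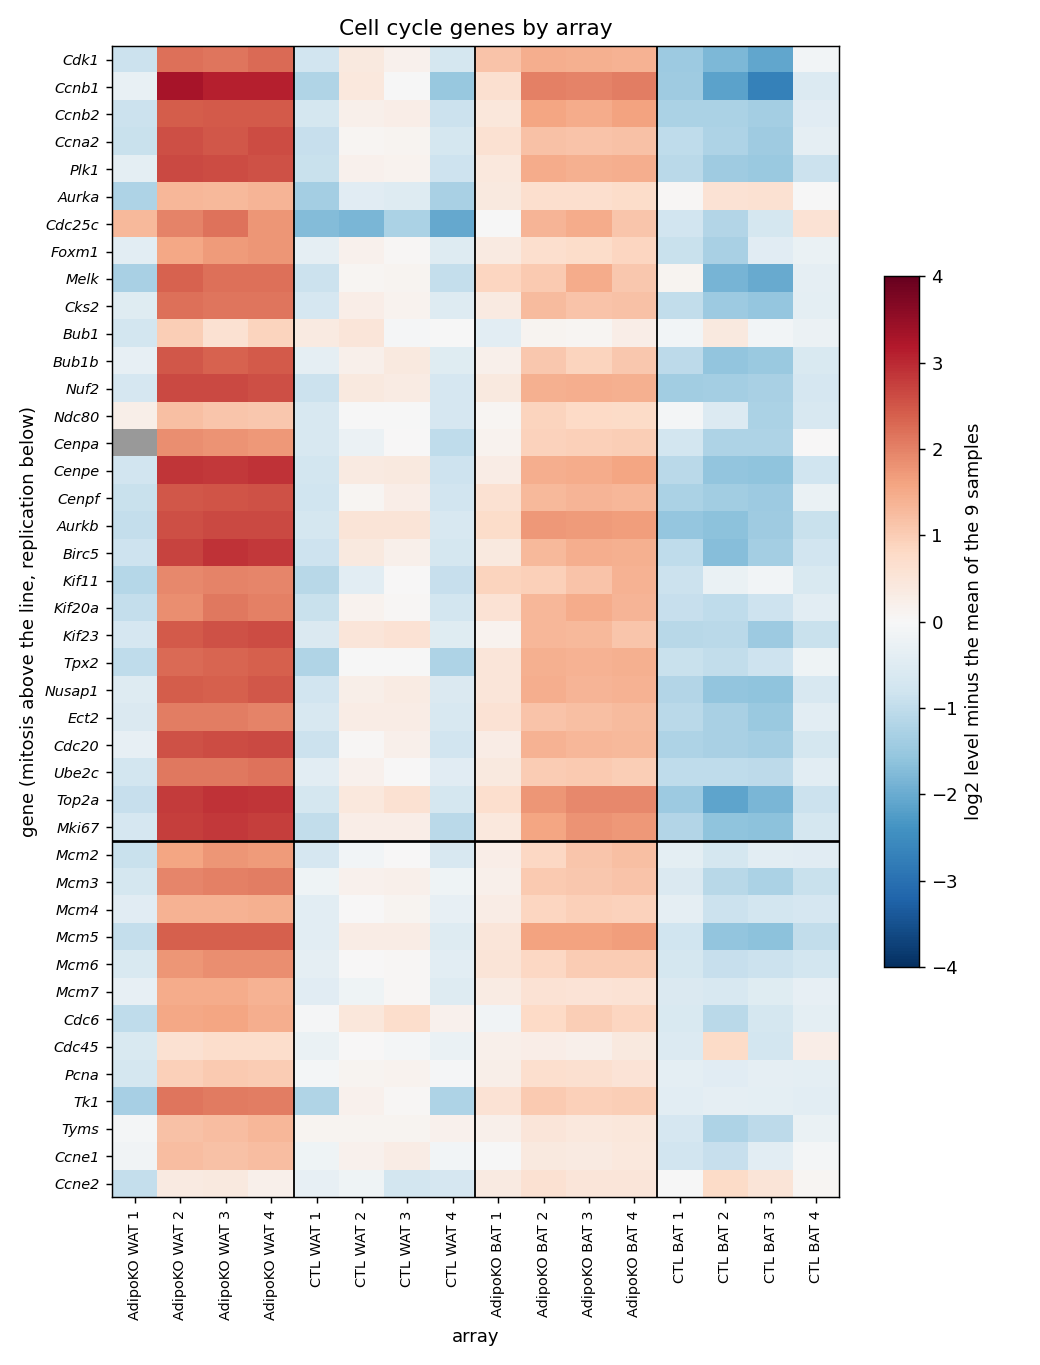
Each row is 1 of the 42 tested genes and each column 1 array; colour gives the log2 level minus the gene's mean over the 9 samples (red higher, blue lower, grey no usable spot), with knockout arrays left of control arrays in each tissue. AdipoKO_WAT arrays 2, 3 and 4 are red in nearly every row while array 1 is not, and AdipoKO_BAT arrays stand above CTL_BAT arrays in 37 of 42 rows.

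In brown adipose tissue, cell cycle genes stood higher in the knockout samples, but no gene passed the test. In the main fit mitosis genes were further up than replication genes. The median difference between knockout and control was 1.79 on the log2 scale over the 29 mitosis genes and 1.02 over the 13 replication genes, beside -0.12 over all 15461 genes. Of the mitosis genes, 28 were higher and 1 lower, and all 13 replication genes were higher; limma called 0 of the 42 at an adjusted p below 0.05, as it called 0 (0%) of all genes. At an unadjusted p below 0.05 there were 12 genes, all higher, 9 of mitosis (Cdk1, Ccnb1, Plk1, Ndc80, Cenpa, Aurkb, Nusap1, Ect2 and Top2a) and 3 of replication (Mcm5, Mcm6 and Tyms), that is 12 of 42 against 7.05% of all genes in either direction. For 37 of the 42, 26 of mitosis and 11 of replication, all 4 knockout arrays lay above all 4 control arrays, against 11.4% of all genes. With the 16 arrays taken as separate samples, limma called 37 higher, 27 of mitosis and 10 of replication, against 12.7% of all genes, but that fit counts near-identical arrays as independent.

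Both brown knockout samples took part. Set against the mean of the brown controls, mitosis genes had a median of 1.46 in the single knockout sample and 2.17 in the repeated one, against -0.12, -0.42 and 0.45 in the control samples. The same medians of replication genes were 0.81 and 1.40 in the knockout samples, against 0.02, -0.11 and 0.03 in the controls. The repeated knockout sample was higher than the single one for all 42 genes, and the single one lay above all 3 control samples for 37. Without CTL_BAT arrays 2 and 3, the sample low in Ucp1, the median difference was 1.69 for mitosis and 0.90 for replication genes. On the only slide that held both brown groups (AdipoKO_BAT arrays 1 and 2 with CTL_BAT arrays 3 and 4), it was 1.82 and 0.99. Without the repeated knockout sample it was 1.46 and 0.81. With normexp background correction in place of the scanner software's own, the median of mitosis genes was 0.85, against 1.79 in the main fit. Whether mitosis genes stood further up than replication genes under normexp is not shown here.

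In white adipose tissue the 2 knockout samples lay on different sides of the control mean. The median difference between knockout and control was 1.07 over mitosis genes, with 28 of 29 higher, and 0.62 over replication genes, with 12 of 13 higher, beside -0.04 over all genes. Limma called 0 of 42 at an adjusted p below 0.05 and 0 (0%) of all genes. At an unadjusted p below 0.05 there were 2 members, Cdc25c and Cenpa, both higher, against 10% of all genes in either direction. Cdc25c passed the filter on dim probes only through the white knockout group, where it was high, and Cenpa was measured in only 1 of the white knockout samples. All 4 knockout arrays lay above all 4 control arrays for 3 members (Cdc25c, Ndc80 and, on the 3 knockout arrays with a usable spot, Cenpa), against 11% of all genes. The fit to 16 arrays called 36 higher, 27 of mitosis and 9 of replication, against 19% of all genes.

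The repeated white knockout sample carried that difference. Against the mean of the white controls, mitosis genes had a median of -0.49 in the single knockout sample and 2.66 in the repeated one, against -0.47 and 0.47 in the control samples, and replication genes -0.49 and 1.55, against -0.21 and 0.21. The repeated sample lay above both controls for all 42 genes and was the highest of all 9 samples for 41. The single sample lay below both controls for 25 of the 41 genes it measured, between them for 14 and above them for 2, Cdc25c and Ndc80. These counts use the brightest probe of each gene. Without the repeated sample, the median difference of both mitosis and replication genes was -0.49. Without the single sample, and with the lone remaining knockout sample assumed to vary like the other groups, limma called 26 members, against 10.7% of all genes. On the only slide with both white groups (AdipoKO_WAT arrays 1 and 2 with CTL_WAT arrays 3 and 4), which holds each of the 4 white samples once, the median was 1.05 for mitosis and 0.57 for replication genes. White controls were not alike either: arrays 2 and 3 lay above arrays 1 and 4 for 41 of 42 genes.

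**Figure D2:**
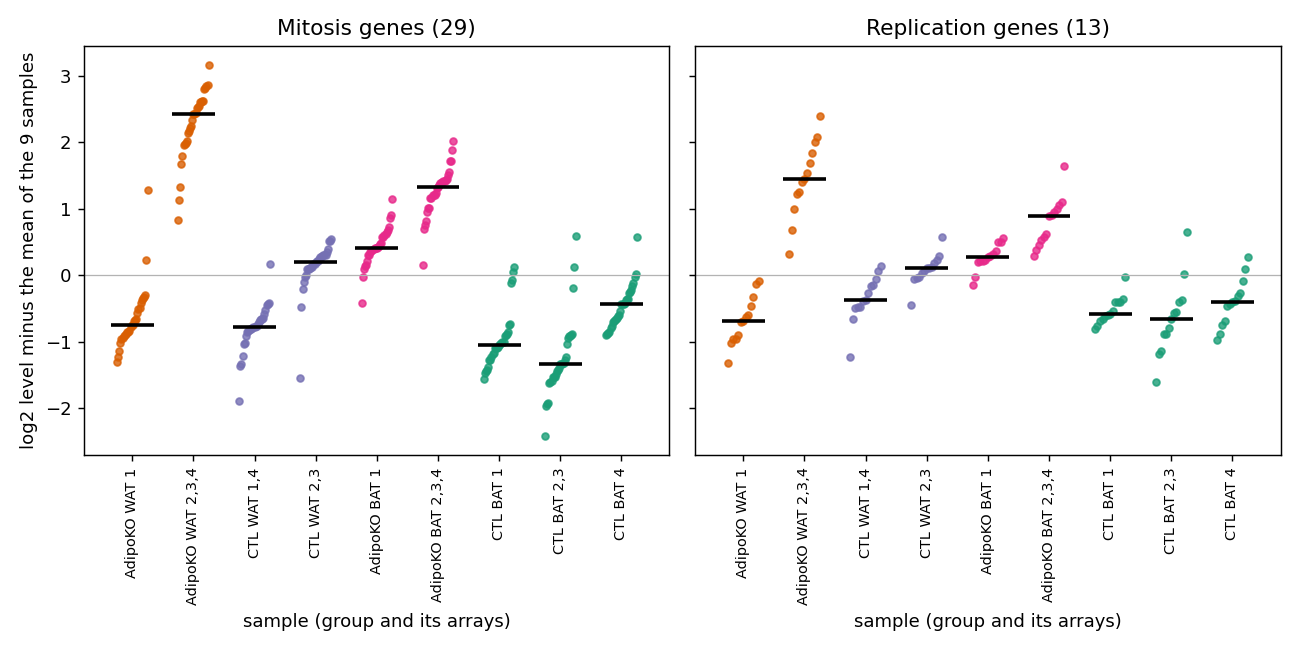
Points are genes, in mitosis (left panel) and replication (right panel); the vertical axis is the log2 level minus the gene's mean over the 9 samples, the horizontal axis the samples with their arrays, and black lines are medians. For mitosis genes the repeated white knockout sample has the highest median (2.42) and the single one lies at -0.75, near the lower white control (-0.77), whereas both brown knockout medians (0.41 and 1.33) exceed the 3 brown control medians (-1.04, -1.33 and -0.44).

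Among the kinases and cyclins of mitotic entry, all 10 genes were higher in knockout in each tissue, with medians of 1.05 in white and 1.77 in brown. Ccnb1, cyclin B1, the partner that activates CDK1, had the largest brown difference of all members. It lay at -3.25 and -1.88 in brown knockout samples, against -5.32, -6.32 and -4.44 in brown control samples, a difference of 2.80 ± 1.09 (SE; limma adjusted p = 0.619). The brown groups did not overlap, although Ccnb1 was well above background on only 2 of the 4 brown control arrays. In white tissue Ccnb1 lay at -4.19 and -0.73 in knockout samples, against -5.26 and -3.69 in controls. Cdk1, the kinase itself, lay at -1.75 and -1.48 in brown knockout samples, against -4.35, -4.83 and -3.01 in brown controls, 2.45 ± 0.92 higher (adjusted p = 0.619). In white tissue it lay at -3.76 and -0.69 in knockout samples, against -3.63 and -2.61 in controls, with the single knockout sample lowest. Cks2, a small subunit that binds cyclin-dependent kinases, was the brightest gene of this group. It lay at 0.84 and 1.67 in brown knockout samples, against -0.53, -1.01 and 0.10 in brown controls, and at -0.01 and 2.64 in white knockout samples, against -0.12 and 0.68 in white controls. The brown Cks2 groups did not overlap, and the white groups did.

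Aurka, the aurora kinase of the spindle poles, did not follow the others in brown fat. It lay at 0.80 and 1.11 in brown knockout samples, against 0.46, 0.99 and 0.38 in brown controls, so that the groups overlapped (0.35 ± 0.70, adjusted p = 0.848). The brown control sample low in Ucp1 was the high one. In white tissue Aurka lay at -0.82 and 1.74 in knockout samples, against -0.92 and -0.07 in controls. Cdc25c, the phosphatase that removes the inhibitory phosphates of CDK1, lay above both controls in each white knockout sample. By the brightest probe of each gene, only Ndc80 also did so among the members both samples measured. Cdc25c lay at -4.91 and -4.22 in these samples, against -8.09 and -7.75 in white controls, where it was not well above background on any array. With the bound of the background, it was at least 2.83-fold higher in knockout (adjusted p = 0.285, in a gene that passed the filter only through that group). In brown tissue Cdc25c lay at -6.22 and -4.88 in knockout samples, against -6.95, -7.13 and -5.62 in controls, well above background on 3 of 4 knockout and 1 of 4 control arrays, and the groups overlapped. Its second probe was not well above background on any of the 16 arrays, so the white difference rests on 1 probe.

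The kinetochore and checkpoint group links chromosomes to the spindle and delays anaphase until all are attached. Of its 7 tested genes 6 were higher in each tissue, with medians of 1.11 in white and 1.68 in brown. Cenpe, a kinesin that moves chromosomes to the spindle equator, lay at 0.40 and 1.61 in brown knockout samples, against -0.99, -1.50 and -0.69 in brown controls (2.06 ± 1.01, adjusted p = 0.619). In white tissue it lay at -0.68 and 2.97 in knockout samples, against -0.68 and 0.49 in controls. By brightest probes, Ndc80, which holds microtubules at the kinetochore, was the only member measured in all 9 samples and separated in both tissues. It lay at -3.26 and -2.37 in white knockout samples, against -4.15 and -3.50 in white controls (1.01 ± 0.45, adjusted p = 0.505), and at -3.40 and -2.68 in brown knockout samples, against -3.57, -4.40 and -4.13 in brown controls (0.99 ± 0.41, adjusted p = 0.619). Cenpa, the histone variant that marks centromeres, had no usable spot on AdipoKO_WAT array 1, and its white difference of 2.26 ± 0.63 (adjusted p = 0.431) rests on the repeated sample alone.

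Bub1, a checkpoint kinase, was the only member of the group that was not higher in knockout by its brightest probe: -0.15 ± 0.49 in white and -0.07 ± 0.45 in brown, with adjusted p of 0.897 and 0.961. Its 2 probes did not give the same picture. The brightest lay at -1.74 and -0.16 in white knockout samples, against -0.81 and -0.78 in white controls, and at -1.41 and -0.83 in brown knockout samples, against -1.10, -0.86 and -1.21 in brown controls. The other probe lay at -4.67 and -0.91 in white knockout samples, against -4.71 and -3.50 in white controls, and at -2.92 and -1.95 in brown knockout samples, against -4.72, -5.58 and -4.59 in brown controls. The dimmer probe thus had the sample order of the other mitosis genes, with brown groups that did not overlap and a difference of 2.52 in brown and 1.32 in white. Both probes were well above background on all 16 arrays, and Bub1 was the 1 gene of 10 with several kept probes whose probes differed in sign. What each probe binds was not tested.

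**Figure D3:**
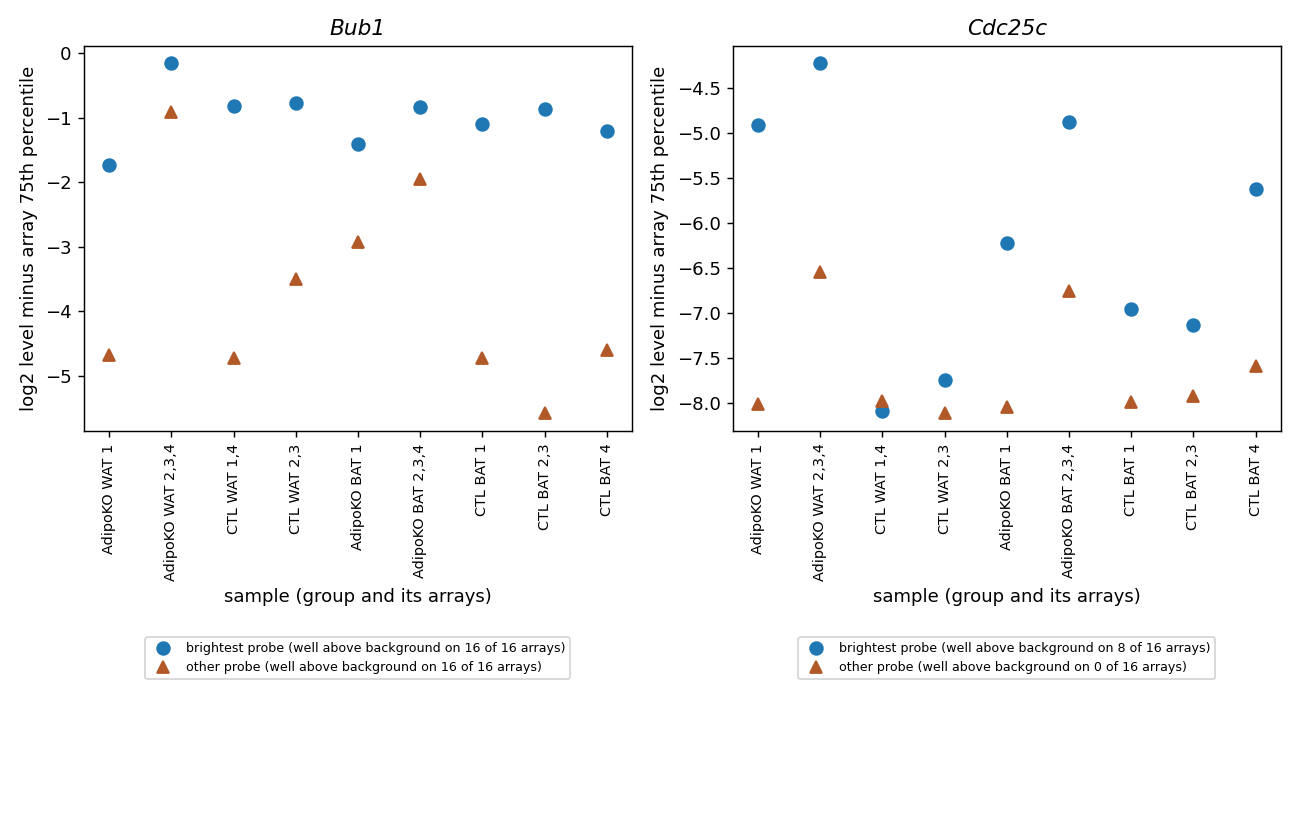
Log2 level relative to the array's 75th percentile (vertical axis) of both probes of Bub1 (left) and of Cdc25c (right) in the 9 samples (horizontal axis, named by group and arrays). The dimmer Bub1 probe is higher in brown knockout samples (-2.92 and -1.95) than in brown control samples (-4.72, -5.58 and -4.59) while the brightest is not, and Cdc25c is seen by its brightest probe only.

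Of the spindle and cytokinesis genes all 8 tested were higher in each tissue, within 0.87 to 1.27 in white and 1.59 to 2.54 in brown. In brown, all knockout arrays lay above all control arrays for all 8, against 11.4% of all genes. In white this held for 0 of the 8, against 11% of all genes. Birc5, survivin, which guides the aurora B kinase to the centromere, lay at 1.13 and 2.12 in brown knockout samples, against -0.29, -0.80 and -0.04 in brown controls (2.0 ± 0.98, adjusted p = 0.619). In white tissue it lay at -0.10 and 3.54 in knockout samples, against -0.03 and 1.03 in controls. Kif20a, a kinesin of the central spindle, lay at -0.12 and 0.68 in brown knockout samples, against -1.62, -1.61 and -1.13 in brown controls, and at -1.66 and 1.29 in white knockout samples, against -1.51 and -0.61 in white controls. Aurkb, the aurora kinase that Birc5 serves, had the largest brown difference of this group (2.54 ± 0.97, adjusted p = 0.619) and 0.91 ± 1.07 in white.

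Anaphase is set off when the anaphase-promoting complex tags cyclin B and securin for destruction. Cdc20, its activator, lay at 0.40 and 1.44 in brown knockout samples, against -1.13, -1.24 and -0.60 in brown controls, and at -0.23 and 2.70 in white knockout samples, against -0.72 and 0.21 in white controls. Ube2c, the ubiquitin-conjugating enzyme of that complex, lay at -0.93 and -0.29 in brown knockout samples, against -2.31, -2.33 and -1.72 in brown controls, and at -2.05 and 0.83 in white knockout samples, against -1.74 and -1.21 in white controls. Neither gene's brown groups overlapped, while in white tissue the repeated knockout sample was far above both controls and the single one was between them for Cdc20 and below them for Ube2c. Mki67, the Ki-67 protein that coats mitotic chromosomes and the usual histological mark of cycling cells, lay at 1.55 and 2.83 in brown knockout samples, against -0.06, -0.50 and 0.42 in brown controls (2.23 ± 0.99, adjusted p = 0.619), and at 0.44 and 3.92 in white knockout samples, against 0.08 and 1.39 in white controls (1.44 ± 1.09, adjusted p = 0.621). Top2a, the topoisomerase that untangles sister chromatids, lay at -2.64 and -1.46 in brown knockout samples, against -4.80, -5.30 and -4.20 in brown controls (2.72 ± 1.05, adjusted p = 0.619), and at -4.25 and -0.48 in white knockout samples, against -4.04 and -2.81 in white controls.

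Replication genes spanned less. The range of a gene over the 9 samples had a median of 2.39 for replication genes, 3.88 for mitosis genes and 1.52 for all genes tested. The origin and helicase group held 8 genes, of which 7 were higher in white (median 0.70) and 8 in brown (median 1.18). Mcm6, a subunit of the replicative helicase, lay at 3.58 and 4.03 in brown knockout samples, against 2.38, 2.18 and 2.32 in brown controls (1.51 ± 0.63, adjusted p = 0.619), and at 2.47 and 4.91 in white knockout samples, against 2.68 and 3.10 in white controls. Mcm7, another subunit, lay at 2.80 and 3.06 in brown knockout samples, against 1.89, 1.92 and 2.17 in brown controls, and at 2.16 and 3.93 in white knockout samples, against 2.0 and 2.43 in white controls. Mcm5 had the largest brown difference of the replication genes: it lay at 0.68 and 1.82 in knockout samples, against -0.62, -1.42 and -0.79 in controls (2.20 ± 0.92, adjusted p = 0.619). None of these brown groups overlapped. Cdc6, which loads the helicase onto origins, had the lowest white difference of the replication genes (-0.06 ± 0.78, adjusted p = 0.977), with -3.96 and -1.41 in knockout samples, against -2.88 and -2.37 in controls. Cdc45, a partner of the helicase, differed by 0.17 ± 0.45 in white and 0.33 ± 0.41 in brown, and its brown groups overlapped. Of all members it differed most between CTL_BAT arrays 2 and 3.

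Of the genes that serve the fork and its nucleotide supply, Pcna, the sliding clamp of the DNA polymerases, had nearly equal levels in the 3 brown control samples. It lay at 3.05 and 3.44 in brown knockout samples, against 2.43, 2.41 and 2.42 in brown controls (0.83 ± 0.45, adjusted p = 0.619), and at 2.13 and 3.82 in white knockout samples, against 2.76 and 2.94 in white controls (0.13 ± 0.50, adjusted p = 0.917). Tyms, thymidylate synthase, lay at 1.03 and 1.27 in brown knockout samples, against 0.15, -0.32 and 0.56 in brown controls (1.02 ± 0.43, adjusted p = 0.619), and at 0.73 and 2.07 in white knockout samples, against 0.96 and 0.92 in white controls. Both genes were thus clear of the controls in brown knockout samples and on either side of them in white. Tk1, thymidine kinase, had the largest white difference of the replication genes (0.94 ± 0.99, adjusted p = 0.703). The E cyclins, which drive cells into S phase, had the lowest medians of the replication groups, 0.32 in white and 0.45 in brown. Ccne1 lay at 0.38 and 0.79 in brown knockout samples, against -0.37, -0.26 and 0.31 in brown controls, and at 0.26 and 1.62 in white knockout samples, against 0.25 and 0.63 in white controls. Its dimmer probe, well above background on all 16 arrays, lay at -2.23 and -2.37 in white knockout samples, against -3.66 and -3.33 in white controls. By that probe both white knockout samples lay above both controls, with a difference of 1.20, against 0.50 by the brightest probe. Ccne2 lay at -4.02 and -3.87 in brown knockout samples, against -4.41, -3.75 and -4.30 in brown controls (0.21 ± 0.39, adjusted p = 0.838), the smallest brown difference of the replication genes, and at -5.36 and -4.08 in white knockout samples, against -4.89 and -4.84 in white controls. The groups of Ccne2 overlapped in both tissues. In brown tissue only the control sample low in Ucp1 (-3.75) reached the knockout samples.

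**Figure D4:**
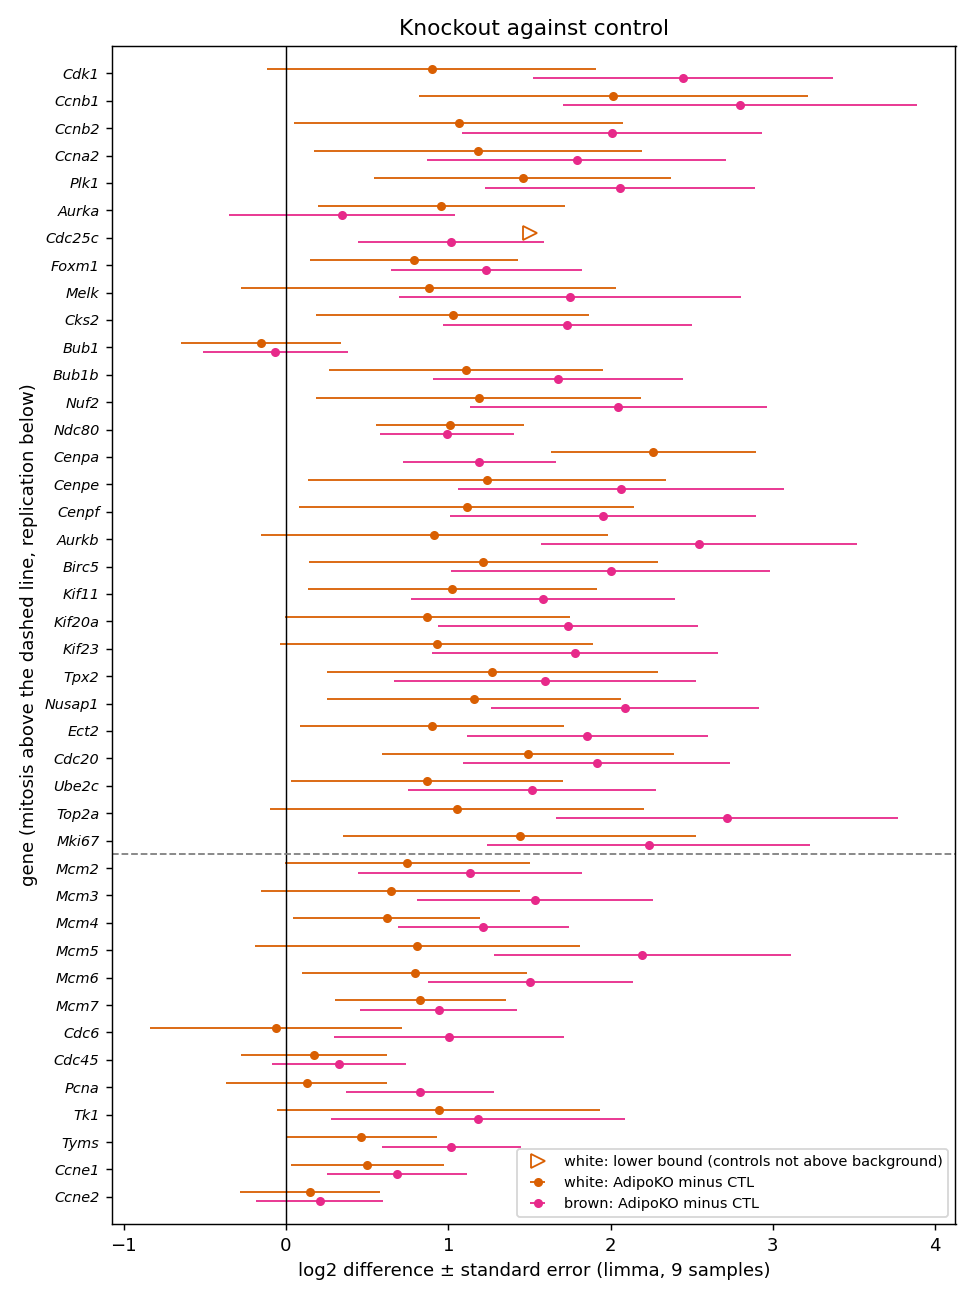
Each row is a gene; points are the log2 difference between knockout and control samples with the standard error of the limma fit to 9 samples as bars, in white (orange) and brown (pink) tissue. Nearly all points lie right of 0, the brown ones mostly further right for mitosis genes, with Bub1, Cdc45 and Ccne2 near 0 in both tissues. The open triangle is the lower bound of Cdc25c in white (2.83-fold), where no control array was above background.

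The knockout effect was not shown to differ between tissues. The difference of the effects, brown minus white, had a median of 0.78 over mitosis and 0.56 over replication genes, with 0 of 42 called and 0 (0%) of all genes. At an unadjusted p below 0.05 there was 1 member, Cdc25c, against 2.6% of all genes, but its white control level is only a bound and the size of its difference is not known. Without CTL_BAT arrays 2 and 3 the medians were 0.54 for mitosis and 0.35 for replication genes. Between tissues of control mice, cell cycle genes stood lower in brown than in white fat: 26 of 29 mitosis genes were lower (median -0.74) and 10 of 13 replication genes (median -0.47), beside -0.09 over all genes. None of the 42 was called, against 5.04% of all genes, and none had an unadjusted p below 0.05, against 22.8%. The lowest was Top2a at -1.34 ± 1.05 (adjusted p = 0.481), and Aurka (1.11 ± 0.70, adjusted p = 0.387) the highest apart from Cdc25c, whose difference was not measured because its brown control mean lay below the bound of the white one. Without CTL_BAT arrays 2 and 3 the medians were -0.54 for mitosis and -0.43 for replication genes, with 0 of 42 called against 2.02% of all genes. With normexp background correction the mitosis median was -0.058. The control tissues also differed in cell type markers. Summed skeletal muscle markers ran from 2058 to 2877 in brown controls, against 2.71 to 2.76 in white controls. T and NK cell markers had a median difference of -2.14, with 15 of 17 lower in brown. The part of tissue make-up in the lower cell cycle genes was not tested. In knockout mice the tissues differed by a median of -0.01 over mitosis and 0.13 over replication genes, with 14 of 29 and 10 of 13 higher in brown. None was called, against 1.54% of all genes, and none had an unadjusted p below 0.05, against 15.3%. Ccne2 was the highest (0.77 ± 0.43, adjusted p = 0.454) and Cenpa, measured in 1 white knockout sample, the lowest (-1.25 ± 0.63, adjusted p = 0.413). With the knockout samples paired between tissues by array number, 0 of 41 were called, against 4.03% of all genes. Without the repeated white knockout sample the mitosis median was 1.65. These 5 comparisons share samples and so are not independent of each other. No slide held both tissues of 1 genotype, so within a slide the tissues could not be compared.

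The members followed a common profile over the 9 samples. For 37 of 42 genes, Pearson's r between a gene and the median profile of the other members was at least 0.866; the values are a description over 8 or 9 samples that share libraries and controls. The least alike were Ccne2 (0.33), Bub1 by its brightest probe (0.58), Aurka (0.61), Cdc25c (0.62) and Cdc45 (0.77), the same 5 genes whose brown groups overlapped. Both readings use the same brown samples, so they are not separate support. For Aurka and Ccne2 the overlap came only from CTL_BAT arrays 2 and 3, the sample low in Ucp1. The most alike were Ccnb2, Birc5 and Mki67. Genes of the cycle outside the list, taken from textbook pathways, lay beside them. Of 39 other mitosis genes 37 were higher in each tissue, with medians of 0.84 in white and 1.41 in brown, and of 39 other replication genes 32 were higher in white and 37 in brown (0.65 and 0.84). None was called in either tissue. The smallest p among other mitosis genes belonged to Smc4 of condensin, which differed by 1.81 ± 0.65 in brown (adjusted p = 0.619), with Ska1 (2.83) and Hmmr (2.31) next. In white it was Fam83d (2.72 ± 1.03, adjusted p = 0.478). Fam83d lay at -1.97 in the single knockout sample and -5.32 in the repeated one, against -6.54 and -6.20 in controls. Both knockout samples were thus above both controls, the single one by far the more. Hjurp (0.59) and Smc2 (1.30) came next there. Of other replication genes, Orc1 of the origin recognition complex was higher in both samples of each knockout group, by 1.87 ± 0.66 in white (adjusted p = 0.46) and 1.78 ± 0.60 in brown (adjusted p = 0.619). Rfc4 (0.93) and Gins2 (-0.70) followed in white, and Prim2 (1.03) and Pole2 (1.91) had small p in brown.

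Regulators of cell cycle entry and inhibitors of its kinases had smaller or mixed differences. The 25 regulators tested had medians of 0.29 in white and 0.34 in brown, with 17 and 18 higher and none called. Myc, a transcription factor that drives growth, was 1.32 ± 0.43 higher in brown (adjusted p = 0.619) and 0.64 ± 0.48 in white. Cdc25b, a phosphatase of cyclin-dependent kinases, was 1.55 ± 0.53 higher in brown and 1.30 ± 0.58 in white, where Cdc25a (1.01) and Rb1 (-0.78) also had small p. Rbl1, a relative of the retinoblastoma protein, was 1.10 ± 0.42 higher in brown. Among them, the D cyclins Ccnd2 (-1.33 ± 0.22, adjusted p = 0.0191) and Ccnd3 (-1.12 ± 0.23, adjusted p = 0.0392) fell in brown against white control fat. They were the only regulators called in any of the 5 comparisons, 2 of 25, against 5.04% of all genes between control tissues. Neither was called without CTL_BAT arrays 2 and 3 (-1.24 ± 0.24, adjusted p = 0.079, for Ccnd2 and -0.98 ± 0.23, adjusted p = 0.128, for Ccnd3). The 7 inhibitors had medians of -0.69 in white and 0.09 in brown, none called: Cdkn1a, p21, differed by -1.06 ± 0.49 in white and Cdkn2b by -0.85 ± 0.36, whereas Cdkn2d (0.66) was higher. In brown, Cdkn1c (-0.99), Cdkn3 (1.60) and Cdkn1b (0.36) had the smallest p. Cdkn3, a phosphatase that is itself transcribed in mitotic cells, lay at -1.74 and 1.21 in white knockout samples, against -2.04 and -1.12 in controls.

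The promoters of the members share sequence that the list did not use. Windows of 250 bases before to 50 after the annotated start were available from RefSeq (GRCm38.p6) for 37 of the 45 genes, and were searched on both strands for CCAAT (bound by NF-Y), for the cell cycle homology region (CHR, spelled TTTGAA or else as the word TTTAAA, through which MuvB complexes act) and for E2F motifs (spelled TTTCGCG or as the word TTTGGCG or as the word TTCCCGC, which can overlap each other). CCAAT stood in 22 of 27 windows of mitosis genes (81.5%) and 9 of 13 of replication genes (69.2%), against 37.4% of all 32851 windows. A CHR word stood in 22 of 27 mitosis windows (81.5%) and 6 of 13 replication windows (46.2%), against 27.6%. Both together stood in 20 mitosis windows (74.1%) and 4 replication windows (30.8%), against 10.7%. An E2F word stood in 2 mitosis windows (7.41%) and 6 replication windows (46.2%), against 6.72%. In the shorter window of 100 bases before to 50 after, CCAAT with CHR remained in 66.7% of mitosis, 15.4% of replication and 3.03% of all windows. These shares are descriptions, and base composition was not matched. The promoters of the brightest gene with a window in each of the 2 largest roles of mitosis (Cks2 of mitotic entry and Birc5 of the spindle) and of replication (Mcm6 of the helicase and Pcna of the fork), and of Cdk1 and Ccnb2, chosen after the motifs were counted because they hold several CCAAT and CHR words, are printed 5′ to 3′ with CCAAT, CHR and E2F words of either strand in capitals:
Cdk1: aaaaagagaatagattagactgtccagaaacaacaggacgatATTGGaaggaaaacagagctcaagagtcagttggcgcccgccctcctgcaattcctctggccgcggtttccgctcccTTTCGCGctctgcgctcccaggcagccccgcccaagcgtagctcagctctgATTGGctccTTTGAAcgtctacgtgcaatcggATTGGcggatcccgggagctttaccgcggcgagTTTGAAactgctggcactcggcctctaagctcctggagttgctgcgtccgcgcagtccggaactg
Ccnb2: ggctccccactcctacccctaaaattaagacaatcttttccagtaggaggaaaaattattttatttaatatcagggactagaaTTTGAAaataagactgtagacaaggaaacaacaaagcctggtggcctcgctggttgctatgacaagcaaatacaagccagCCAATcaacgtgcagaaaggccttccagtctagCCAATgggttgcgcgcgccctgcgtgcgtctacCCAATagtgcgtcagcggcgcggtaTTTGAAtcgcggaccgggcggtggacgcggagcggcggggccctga
Cks2: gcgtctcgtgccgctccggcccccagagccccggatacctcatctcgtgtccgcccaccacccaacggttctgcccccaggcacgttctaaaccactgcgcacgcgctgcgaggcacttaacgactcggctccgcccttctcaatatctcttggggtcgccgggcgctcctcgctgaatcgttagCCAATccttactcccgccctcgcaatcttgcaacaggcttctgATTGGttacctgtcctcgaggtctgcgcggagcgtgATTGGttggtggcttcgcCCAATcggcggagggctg
Birc5: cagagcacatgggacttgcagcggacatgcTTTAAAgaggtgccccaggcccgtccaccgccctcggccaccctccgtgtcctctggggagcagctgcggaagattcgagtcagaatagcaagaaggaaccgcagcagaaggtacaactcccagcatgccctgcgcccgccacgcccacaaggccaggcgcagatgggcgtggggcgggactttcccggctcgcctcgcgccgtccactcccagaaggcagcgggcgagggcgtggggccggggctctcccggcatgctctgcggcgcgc
Mcm6: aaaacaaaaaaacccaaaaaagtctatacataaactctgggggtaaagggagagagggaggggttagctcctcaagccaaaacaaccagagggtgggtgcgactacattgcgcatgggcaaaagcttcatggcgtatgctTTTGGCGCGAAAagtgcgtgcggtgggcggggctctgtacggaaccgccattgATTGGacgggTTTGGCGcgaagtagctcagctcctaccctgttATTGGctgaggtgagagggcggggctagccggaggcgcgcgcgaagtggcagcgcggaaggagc
Pcna: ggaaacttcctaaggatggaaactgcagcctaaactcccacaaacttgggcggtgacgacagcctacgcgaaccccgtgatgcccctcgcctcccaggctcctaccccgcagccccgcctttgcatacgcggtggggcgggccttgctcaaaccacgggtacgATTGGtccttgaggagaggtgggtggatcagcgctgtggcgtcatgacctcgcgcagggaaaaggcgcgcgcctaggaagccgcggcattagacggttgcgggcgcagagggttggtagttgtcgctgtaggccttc
The Cdk1 window is chr10:69352863-69353162 on the minus strand, and holds 3 CCAAT, 2 CHR and 1 E2F words. The Ccnb2 window is chr9:70421505-70421804 on the minus strand, with 3 CCAAT and 2 CHR words. That of Cks2 is chr13:51644982-51645281 on the plus strand, with 4 CCAAT words and no CHR word. That of Birc5 is chr11:117848987-117849286 on the plus strand, with 1 CHR word and no CCAAT. That of Mcm6 is chr1:128359656-128359955 on the minus strand, with 2 CCAAT and 3 E2F words, 2 of which overlap. That of Pcna is chr2:132253131-132253430 on the minus strand, with 1 CCAAT word. Windows of Ccna2, Foxm1, Tpx2, Cdc25c, Aurkb, Ccne2, Kif20a and Mcm4 were not used here.

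Most markers of lymphocytes moved with the members over the samples. The 17 of 18 T and NK cell markers tested had medians against the tissue's control mean of 3.14 and 4.71 in brown knockout samples, against 0.71, 0.14 and -1.06 in brown controls, and of -1.06 and 2.98 in white knockout samples, against -0.90 and 0.90 in white controls. Their summed linear level, in units of the array's 75th percentile, ran from 23.7 to 74.3 in brown knockout samples, against 1.74 to 4.93 in brown controls, and from 5.37 to 122 in white knockout samples, against 6.15 to 24.5 in white controls. No marker level was at 0. Of the T and NK cell markers tested, 16 of 17 were higher in white knockout and 15 of 17 in brown knockout. Gzma had the lowest difference in each tissue (-0.66 in white and -0.88 in brown). The 8 of 9 B cell markers tested had medians of 2.26 and 4.89 in brown knockout samples, against 3.32, -1.0 and -2.23 in brown controls, and of -0.08 and 3.60 in white knockout samples, against -1.29 and 1.29 in white controls. Their summed level ran from 18.9 to 92.5 in brown knockout samples, against 0.673 to 35.9 in brown controls, and from 10.1 to 134 in white knockout samples, against 3.91 to 25.8 in white controls. The order was not the same throughout. CTL_BAT array 1 had the highest B cell markers of its group (3.32) with mitosis genes at -0.12, and CTL_BAT array 4 had the lowest T cell markers (-1.06) with mitosis genes at 0.45, the highest of its group.

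Germinal centre B cells, which divide fast in lymph nodes, were followed by 5 markers, S1pr2, Rgs13, Mef2b, Gcsam and Bcl6. Their medians were 0.69 and 1.80 in brown knockout samples, against -0.16, 0.0044 and -0.03 in brown controls, and -0.31 and 2.54 in white knockout samples, against -0.37 and 0.37 in white controls. The repeated knockout sample was thus the highest in each tissue for these markers, as for mitosis genes, and all 5 were higher in white knockout and 4 in brown, with Bcl6 lower there (-0.73). Their summed level ran from 17.1 to 17.3 in brown knockout samples, against 22.9 to 33.8 in brown controls, and from 8.33 to 17.8 in white knockout samples, against 7.31 to 16.8 in white controls. In brown tissue the sum thus went against the medians. A sum is set by the brightest of the markers. The median log2 level of the 5 was -4.03 and -1.20 in brown knockout samples, against -4.74 to -4.35 in brown controls.

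Of the markers of other cell types, none was called in knockout against control. Plasma cell markers were higher for 4 of 6 in each tissue (medians of 0.50 in white and 0.28 in brown), and thymocyte markers, of which 4 of 8 were tested, for 3 in white and 2 in brown (0.67 and 0.49). All 4 of 10 erythroid markers tested were lower in each tissue (-1.66 in white and -0.95 in brown). Their summed level ran from 43.0 to 149 in white knockout samples, against 249 to 254 in white controls, and from 50.3 to 87.7 in brown knockout samples, against 74.7 to 208 in brown controls. Skeletal muscle markers were lower for 8 of 8 in brown (-0.79), where their summed level ran from 1133 to 1870 in knockout samples, against 2058 to 2877 in controls, and higher for 6 of 8 in white (0.51). Adipocyte markers were lower for 10 of 10 in each tissue (-0.84 in white and -0.30 in brown), brown adipocyte markers for 5 of 8 in white and 6 in brown (-0.09 and -0.26), and mesothelial markers for 7 of 7 in white and 5 in brown (-1.79 and -0.95). Markers of adipocyte progenitors were lower for 6 of 9 in each tissue (-0.61 and -0.50), of endothelium for 7 of 8 in white and 6 in brown (-0.61 and -0.41), and of macrophages for 7 of 11 in white and 9 in brown (-0.16 and -0.47). Those of neutrophils and their precursors, 6 of 9 tested, were lower for 5 in white and 4 in brown (-0.17 and -0.37), and those of male germ cells, 7 of 10 tested, for 4 in white and 3 in brown (-0.01 and 0.05).

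In the repeated white knockout sample the 10 adipocyte markers had a median of -1.69 and the 7 mesothelial markers one of -3.62, against -0.10 and 0.05 in the single one. The 11 macrophage markers had medians of -0.78 and -0.08 in brown knockout samples and of -0.77 and 0.63 in white knockout samples. The part of lymphocytes, or of any other cell type, in the level of the cell cycle genes was not tested.

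**Figure D5:**
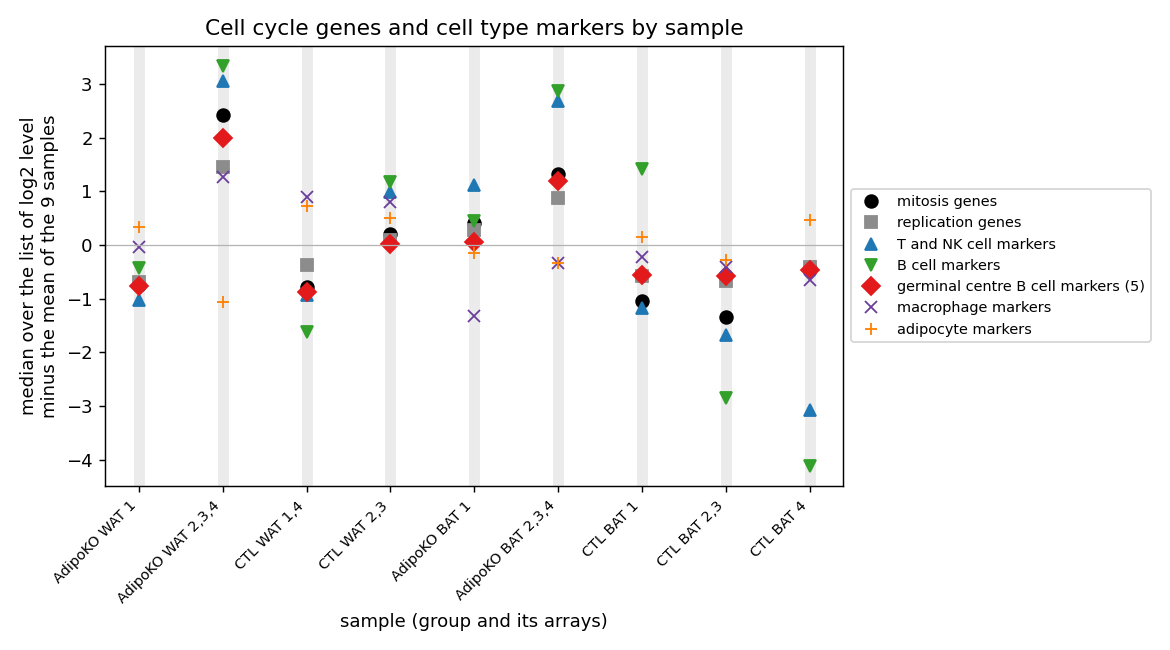
Medians over gene lists of the log2 level minus the gene's mean over the 9 samples (vertical axis) for each sample (horizontal axis): mitosis and replication genes in black and grey, cell type markers in colour. The repeated knockout samples of both tissues are highest for mitosis genes (2.42 and 1.33) and for T and NK cell markers (3.06 and 2.69), while CTL_BAT array 1 has B cell markers at 1.43 with mitosis genes at -1.04.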

How the data were processed

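Per the labels, total RNA was labelled with Cy3. Per the file headers, Agilent Feature Extraction 12.0.0.7 read the images, and the deposited scanner files give background-subtracted intensity per spot on a linear scale, not scaled between arrays. The authors' deposited value table holds the same intensity averaged per probe, and its direction and scale are known from that match. From these, log2 processed intensity minus each array's 75th percentile was computed, outlier spots were left out and spots of a probe averaged. RefSeq accessions named 28223 of 41174 probes through the GRCm38.p6 table (19096 symbols; 12951 unnamed). Each gene took the values of the brightest of its kept probes.

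Arrays of a group were merged where the median absolute deviation of difference over stated error was below 1 over 9836 bright probes, a choice made with the data known. It departs from the 16 arrays as planned. Whether merged arrays are repeats or very similar or pooled animals is not given in the sources used here, and p-values measure the spread between these samples. Groups were compared with limma 3.58.1 (R 4.3.3) with a mean per group, 5 residual degrees of freedom and Benjamini-Hochberg adjustment over 15461 genes (threshold 0.05). The procedure was tested on simulated data.

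The members, gene lists and tests were chosen with earlier results of these data known. Values by sample are given for the 2 brightest members of each role, and for the largest and smallest difference of each comparison; other genes named (Cdk1, Ndc80, Mcm5, Aurkb, Myc and the rest) were named for their p or after their values were seen. Of each other pathway list, the 3 genes with the smallest p are named. Alternatives were 16 separate arrays, slide or replicate number as a block, values within a slide, normexp (offset 50, with the median signal because the files hold no mean signal), quantile normalization, the authors' values, other filters on dim probes, the mean of kept probes and each array left out. Leaving out the repeated knockout samples or the brown control low in Ucp1, and pairing knockout samples between tissues, were added after seeing the data. One marker gene is not reported here.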

Additional observations from a re-analysis of the deposited data

How the results depend on the processing

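Counts of members called (0 in each comparison) were 36 in white and 37 in brown knockout with 16 separate arrays (against 44.7% and 30.5% of all genes), which also gave 1 between tissues of knockouts and 3 of controls (against 25.7% and 39.3%). The slide block gave 1 in white (against 1.27%). Leaving out each replicate gave 0 to 26 in white, 26 without AdipoKO_WAT replicate 1 (against 10.7%), and 0 in brown; leaving out AdipoKO_WAT arrays 2, 3 and 4 gave 1 between tissues of knockouts (against 6.53%). Same-numbered arrays correlated at -0.52 to 0.41 between white groups, below 0 in all 4 pairs of brown groups, at -0.13 to 0.18 between control tissues and at 0.295 to 0.571 between knockout tissues, where arrays 2, 3 and 4 are 1 sample and so give 2 pairs, not 4. A replicate block pairing these samples, added after seeing the data, called 0 of 41 members between knockout tissues and in the difference of the effects, and 623 of all genes between knockout tissues, against 238 without it. With the replicate block over 16 arrays 35 were called in white, 35 in brown and 4 between tissues of controls (against 46%, 32.1% and 39.9% of all genes), and the brown replication median was 1.28, as with 16 arrays. That median was 1.45 with the authors' values, 0.81 without AdipoKO_BAT arrays 2, 3 and 4 (and without both repeated samples), and 0.986 to 1.40 when each replicate was left out. The brown mitosis median was 0.85 with normexp (the cause was not tested). Between tissues the slide block, which joins them only through slides that mix genotypes, gave -1.84 and -1.20 in knockouts and -2.51 and -1.59 in controls for mitosis and replication; the mitosis median was 1.65 in knockouts without AdipoKO_WAT arrays 2, 3 and 4 and -0.058 in controls with normexp, and the replication median -0.81 in controls with the authors' values. Without AdipoKO_WAT arrays 2, 3 and 4, or without both repeated samples, white differences turned negative for Cks2 (-0.30), Aurka (-0.32), Cenpe (-0.58), Birc5 (-0.60), Kif20a (-0.60), Ube2c (-0.57), Mki67 (-0.30), Top2a (-0.83), Mcm6 (-0.42), Mcm7 (-0.061), Pcna (-0.72), Tyms (-0.21), Ccne1 (-0.18) and Ccne2 (-0.49). The authors' unscaled values, whose all-gene medians were -0.23 in white and 0.31 in brown, turned Pcna (-0.066) and Ccne2 (-0.047) in white and Bub1 (0.37) in brown. Normexp turned Ccne2 (-0.51) and Cdc25c (-0.51) in brown. Bub1 turned positive in white with 16 arrays or the replicate block (0.24), the slide block or within 1 slide (0.16) and the mean of probes (0.58), and ran from -0.29 to 0.63 over replicates left out; in brown these were 0.030, 0.013, 1.23 and -0.15 to 0.22, and 0.033 without CTL_BAT arrays 2 and 3. The number of arrays, 2 or 3 distinct samples a group, limits every comparison.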
